A study of Mus musculus with 15 samples.

Results

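Genes that mark alternatively activated (M2) macrophages were followed through injured and uninjured mouse organs, namely Chil3, Arg1, Retnla, Mrc1, Cd163, Mgl2, Clec10a, Ear2, F13a1 and Il4ra. These 10 genes were taken by symbol from a table of 56748 genes, each symbol matching 1 gene. The counts came from 15 poly(A) RNA libraries, 3 in each of 5 groups, and asked how a leptin-neutralizing antibody (LepAb) changes injured kidney and lung. All mice were wild type, and the study describes male C57Bl/6 mice. The kidney groups were vehicle-treated kidney (WTK), kidney injured with folic acid and given control IgG (IgGK), and kidney injured with folic acid and given LepAb (LepK). Folic acid was given at 200 mg/kg and antibody at 10 mg/kg to mice of 10 to 12 weeks, with tissue taken on day 28. Whether WTK mice also received IgG is not given in the labels. The lung groups were bleomycin-injured lung with IgG (IgGL) and bleomycin-injured lung with LepAb (LepL), from mice of 12 weeks given 1.5 units/kg of bleomycin and 10 mg/kg of antibody, with tissue taken on day 14. No uninjured lung was analysed here, so the effect of bleomycin itself was not measured, and organ, injury and day differ together between kidney and lung.

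Macrophages change their program with the signals around them. Interleukin 4 and interleukin 13, made mainly by T helper 2 cells, innate lymphoid cells and granulocytes, act through receptors that share the chain encoded by Il4ra and switch on the transcription factor STAT6. The genes switched on include arginase, chitinase-like and resistin-like proteins and endocytic lectins, and cells of this kind are known for resolving inflammation, clearing debris and supporting matrix deposition in injured kidney and lung. None of the 10 genes is restricted to these cells: Arg1 is also a urea cycle enzyme of hepatocytes, Retnla and Chil3 can be made by epithelium and other myeloid cells, and Ear2 belongs to a ribonuclease family of eosinophils and macrophages.

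Total counts were 25913969 to 38924788 per library. The labelled organs matched their defining genes, since 6 kidney tubule genes summed to 4376 to 14530 normalised CPM (counts scaled by the size of the library, within each organ) in the kidney libraries and 6 lung epithelial genes summed to 16370 to 47250 in the lung libraries. LepK replicate 2 stood apart from the other kidney libraries in hepatocyte genes, with Alb at 697 normalised CPM against 2.31 to 74.0 in the other 8. The 3 IgGL libraries also differed among themselves, Arg1 ranging from 35.2 to 633 normalised CPM and Mgl2 from 8.68 to 38.2. As these were whole-tissue libraries, fewer macrophages and less RNA per macrophage cannot be told apart.

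The sequences before 3 of the genes are shown because Retnla was the most abundant of the 10 in every group, Chil3 had its highest kidney level in a LepK library, and Cd163 was called lower with LepAb in both organs. RefSeq promoter entries (build GRCm38.p6) were found for 8 of the 10 genes, as 9 windows, F13a1 having a pair of them. No entry was used for Arg1 and Clec10a. Each line gives the 250 bases before the start site, 5′ to 3′ on the strand of the gene, with capitals marking the palindrome TTCNNNNGAA, the pattern STAT6 is known to prefer.
Retnla (chr16:48842359-48842608, plus strand): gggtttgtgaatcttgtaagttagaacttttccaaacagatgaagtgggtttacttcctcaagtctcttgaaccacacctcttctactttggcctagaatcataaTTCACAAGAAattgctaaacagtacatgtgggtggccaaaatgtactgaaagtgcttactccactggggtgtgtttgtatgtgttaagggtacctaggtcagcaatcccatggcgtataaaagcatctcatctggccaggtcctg
Chil3 (chr3:106167565-106167814, minus strand): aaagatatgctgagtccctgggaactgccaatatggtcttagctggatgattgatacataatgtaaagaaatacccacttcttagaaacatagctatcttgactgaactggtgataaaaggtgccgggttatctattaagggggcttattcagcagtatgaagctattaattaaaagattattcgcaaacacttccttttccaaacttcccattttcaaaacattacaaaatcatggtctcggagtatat
Cd163 (chr6:124304401-124304650, plus strand): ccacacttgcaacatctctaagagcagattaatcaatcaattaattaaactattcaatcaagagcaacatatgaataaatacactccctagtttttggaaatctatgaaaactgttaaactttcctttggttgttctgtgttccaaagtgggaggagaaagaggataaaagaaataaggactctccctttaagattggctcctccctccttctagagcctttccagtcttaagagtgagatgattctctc
The palindrome, which reads the same on both strands, occurred in 1 of the 9 windows, as TTCACAAGAA starting 145 bases before the Retnla start site. Each entry was checked for whether the bases after its start site lie in an annotated transcript of the gene. Retnla alone failed this check, so its start site and the distances given to it are uncertain. Of 32851 mouse windows of the same length, 5.85% held it. The PU.1 core GAGGAA, searched on both strands, was present in 4 of the 9 windows, those of Retnla, Mrc1, Mgl2 and 1 of F13a1, and in 23.3% of all windows. The C/EBP pattern TTGCNNAA, also searched on both strands, was present in 2 of the 9, Retnla and Ear2, and in 9.56% of all windows. In Retnla this match began 134 bases before the start site, next to the palindrome and without overlapping it. These matches describe letters in a window only.

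In the deposited table (build GRCm39) the 10 genes lie on 9 chromosomes and all are protein coding. The receptors are Il4ra (ENSMUSG00000030748, chr7:125151292-125178646, plus strand), Mrc1 (ENSMUSG00000026712, chr2:14234203-14336868, plus), Cd163 (ENSMUSG00000008845, chr6:124281615-124307486, plus), Mgl2 (ENSMUSG00000040950, chr11:70021155-70028376, plus) and Clec10a (ENSMUSG00000000318, chr11:70047023-70061660, plus). The enzymes are Arg1 (ENSMUSG00000019987, chr10:24791119-24803382, minus) and F13a1 (ENSMUSG00000039109, chr13:37051152-37234220, minus). The secreted proteins are Chil3 (ENSMUSG00000040809, chr3:106054870-106074880, minus), Retnla (ENSMUSG00000061100, chr16:48662914-48664824, plus) and Ear2 (ENSMUSG00000072596, chr14:44340111-44340991, plus). The libraries kept no strand, but the genes that overlap Mrc1, Cd163, Ear2, F13a1 and Il4ra had at most 11 counts in any library.

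Levels of different genes were compared per length, as the authors' FPKM values. Retnla, which encodes the secreted resistin-like molecule alpha, had the highest mean FPKM of the 10 in all 5 groups, at 5.78 ± 3.71 in WTK, 23.0 ± 4.64 in IgGK and 22.3 ± 7.87 in LepK among the kidney groups (SD, n = 3 each). In the lung groups it was 1272 ± 269.5 with IgG and 1199 ± 315 with LepAb. It made up 69.9% of the summed mean FPKM of the 10 genes in IgGL and 81.0% in LepL, against 44.1% in WTK, 38.1% in IgGK and 47.1% in LepK. The lowest gene was Chil3 in WTK and IgGK, at 0.0244 ± 0.0423 and 0.204 ± 0.167, and Cd163 in LepK and LepL, at 0.152 ± 0.0683 and 1.69 ± 0.418. In IgGL it was Clec10a, at 3.61 ± 0.246. Chil3 was thus the lowest of the set in WTK and IgGK, 7th of 10 in LepK and second in both lung groups, where its mean FPKM was 297 ± 123 in IgGL and 149 ± 20.1 in LepL.

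The order of the groups differed between genes. Mrc1 and Il4ra ran IgGL, LepL, IgGK, LepK, WTK from high to low FPKM, with no overlap between neighbours in that order. Cd163 and F13a1 had the same first 3 groups, but WTK overlapped both IgGK and LepK. Mgl2 did not follow the organ: its mean FPKM was 11.8 ± 1.56 in LepL, 10.5 ± 2.03 in IgGK, 7.32 ± 5.02 in IgGL and 6.36 ± 1.31 in LepK, each overlapping its neighbour, and 1.54 ± 0.186 in WTK, which stood apart. Clec10a was similar, with 3.61 ± 0.246 in IgGL, 3.05 ± 0.820 in IgGK, 2.18 ± 0.547 in LepL and 1.91 ± 0.282 in LepK, again overlapping in turn, and 0.781 ± 0.319 in WTK. Kidney and lung levels were not tested against each other.

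**Figure D1:**
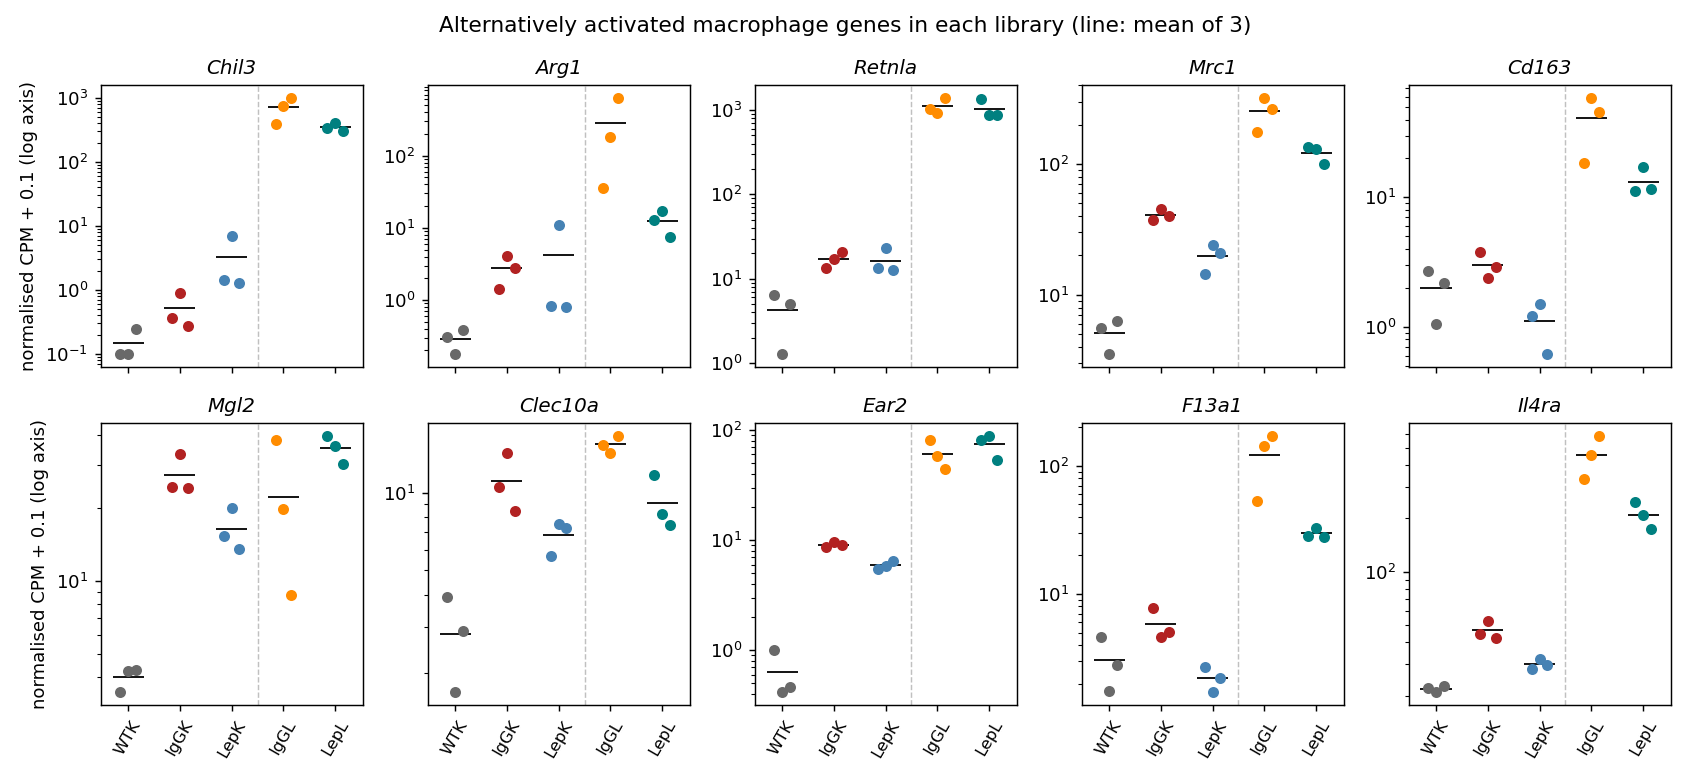
Normalised CPM of each of the 10 genes in each of the 15 libraries, on a log axis after adding 0.1, with 1 point per library and a line at the mean of the 3 libraries of a group. CPM values were scaled within kidney (left of the dashed line) and within lung (right) separately. Most genes rose from WTK to IgGK, while Arg1 and Chil3 had 1 high LepK library, and Arg1 ranged from 35.2 to 633 among the IgGL libraries.

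Folic acid injury was accompanied by higher levels of most of the set. In IgGK against WTK, 8 of the 10 genes rose and none fell (edgeR quasi-likelihood test, absolute log2 fold change over 0.5 and adjusted p under 0.05), where 21.7% of the 19593 genes tested in kidney rose and 15.6% fell. None of the 10 was lower at an unadjusted p under 0.05 either, where 11366 of the 19593 genes passed in either direction. DESeq2 also called 0 of the 10 lower, beside 3173 of all genes. The median log2 fold change of the 10 was 2.42, beside 0.04 over all genes tested. Without an overlap between groups, 8 of the 10 were above WTK, as were 32.5% of all genes tested, and none was below WTK, as were 30.1%. All 10 passed the filter on low counts in kidney, Chil3 through its LepK counts. Arg1 and Ear2, with 5, 2 and 8 and with 22, 8 and 10 counts in WTK, passed through the injured groups alone. Their calls against WTK are therefore given as descriptions.

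Among the receptors, Il4ra, the shared chain of the interleukin 4 and 13 receptors, measured 22.0, 20.8 and 22.7 normalised CPM in the 3 WTK libraries and 44.4, 52.9 and 42.4 in the IgGK libraries. The groups did not overlap, and Il4ra rose by 1.09 ± 0.094 on the log2 scale (SE, edgeR adjusted p = 1.05e-06). Mrc1, the mannose receptor CD206 that takes up glycoproteins and collagen fragments, measured 5.48, 3.44 and 6.17 in WTK and 37.1, 45.3 and 40 in IgGK. It rose 8.09-fold (log2 3.02 ± 0.214, edgeR adjusted p = 2.46e-07). Mgl2, a galactose-type lectin of macrophages and dendritic cells, went from 3.37, 4.15 and 4.18 to 24.4, 33.4 and 24.1 (log2 2.80 ± 0.183, edgeR adjusted p = 1.52e-07). Its neighbour on chromosome 11, Clec10a, encodes the related lectin CD301a and went from 3.82, 1.58 and 2.81 to 10.4, 14.2 and 8.38 (log2 2.01 ± 0.287, edgeR adjusted p = 6.97e-05). For all of these the lowest IgGK library lay above the highest WTK library. Cd163, the scavenger receptor for haemoglobin bound to haptoglobin, was the exception among the receptors, at 2.62, 0.948 and 2.09 in WTK and 3.69, 2.29 and 2.80 in IgGK. These ranges overlapped, and its log2 difference of 0.63 ± 0.413 did not pass the test (edgeR adjusted p = 0.22).

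Of the secreted proteins and enzymes, Ear2, a ribonuclease, had the largest log2 fold change of the 10. It measured 0.914, 0.316 and 0.361 normalised CPM in WTK and 8.51, 9.55 and 9.02 in IgGK, a 17.1-fold rise (log2 4.10 ± 0.308, edgeR adjusted p = 3.78e-07). The close family members Ear1, Ear6 and Ear10 measured at most 0.0369 in any kidney library, and how reads shared between such copies were assigned is not given in the sources used here. Retnla measured 6.40, 1.19 and 4.98 in WTK and 13.5, 17.3 and 20.5 in IgGK (log2 2.03 ± 0.411, edgeR adjusted p = 0.00107). Arg1, which turns arginine into ornithine and urea, measured 0.208, 0.0790 and 0.289 in WTK and 1.32, 3.94 and 2.66 in IgGK. The groups did not overlap, and the log2 fold change was 3.74 ± 1.09 (edgeR adjusted p = 0.0112). F13a1, the clotting transglutaminase subunit, measured 4.53, 1.66 and 2.71 in WTK and 7.62, 4.52 and 4.97 in IgGK. Its rise of 0.94 ± 0.344 on the log2 scale passed the test (edgeR adjusted p = 0.0347) although the highest WTK library reached the lowest IgGK library, and it no longer passed without IgGK replicate 1 (log2 0.68, adjusted p = 0.155), WTK replicate 2 (0.66, 0.126) or WTK replicate 3 (0.88, 0.101). Chil3, the chitinase-like protein Ym1, had 0, 0 and 4 counts in WTK and 8, 28 and 6 in IgGK, and its log2 difference of 2.92 ± 1.21 did not pass (edgeR adjusted p = 0.0601). It passed without IgGK replicate 3 (3.28, 0.0473) or WTK replicate 3 (adjusted p = 0.0359, with no count left in WTK).

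With LepAb in the injured kidney, several surface receptors and the transglutaminase gene F13a1 were lower. In LepK against IgGK, 5 of the 10 genes fell, Mrc1, Cd163, Mgl2, F13a1 and Il4ra, while 5.99% of all genes tested fell. Chil3 was the 1 gene called higher, where 4.38% of all genes rose, but it had entered the test through its LepK counts, so that its call is no support for a rise. Of the other 9 genes, 0 were higher by edgeR, by DESeq2 or at an unadjusted p under 0.05. DESeq2 called 949 of all 19593 genes higher, and 6441 passed the unadjusted p in either direction. The median log2 fold change of the 10 was -0.67, beside -0.01 over all genes. In 7 of the 10 every LepK library lay below every IgGK library, as in 19.5% of all genes.

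Il4ra measured 28.2, 32.1 and 29.8 normalised CPM in LepK, between the WTK and IgGK ranges and overlapping neither. It fell by 0.63 ± 0.0921 on the log2 scale (edgeR adjusted p = 0.000806). Mrc1 measured 14.3, 24.0 and 20.8, also between the WTK and IgGK ranges, and its log2 fold change was -1.05 ± 0.190 (edgeR adjusted p = 0.00251). Mgl2 measured 15.3, 19.98 and 13.5, and its log2 fold change was -0.75 ± 0.162 (edgeR adjusted p = 0.00691). For these 3 genes LepK was thus below IgGK and above WTK in every library. Cd163 fell to 1.12, 1.41 and 0.517 (log2 -1.52 ± 0.428, edgeR adjusted p = 0.0255), reaching into and below the WTK range, although its counts were low, at 14 to 42 in LepK and 80 to 112 in IgGK. F13a1 fell to 2.60, 1.61 and 2.10 (log2 -1.43 ± 0.350, edgeR adjusted p = 0.0125), within or just under its WTK range. The Cd163 call was lost without LepK replicate 1 (log2 -1.59, adjusted p = 0.0612), LepK replicate 3 (-1.21, 0.0804), IgGK replicate 1 (-1.30, 0.0855) or IgGK replicate 3 (-1.54, 0.0553), and that of F13a1 without IgGK replicate 1 (-1.16, 0.054), which left 3 genes called lower.

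Clec10a and Ear2 pointed the same way without passing. Clec10a measured 5.60, 7.48 and 7.20 in LepK (log2 -0.70 ± 0.268, edgeR adjusted p = 0.0873), and Ear2 measured 5.40, 5.73 and 6.42 (log2 -0.63 ± 0.244, edgeR adjusted p = 0.0936). In both, all 3 LepK libraries were below all 3 IgGK libraries, and DESeq2 called both lower, at adjusted p = 0.0383 and 0.0112. Retnla measured 13.5, 23.0 and 12.6 in LepK, spanning its IgGK range, with a log2 difference of -0.07 (95% interval -0.88 to 0.75, edgeR adjusted p = 0.929).

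Arg1 and Chil3 depended on a single LepK library. Arg1 measured 0.724, 10.7 and 0.702 normalised CPM in LepK replicates 1, 2 and 3, so that replicate 2 exceeded every IgGK library and the other two lay below every IgGK library. Over all 3 libraries the log2 difference was 0.62 ± 0.822 (edgeR adjusted p = 0.654), and without LepK replicate 2 it was -1.88 and passed the test in the other direction (edgeR adjusted p = 0.0282). Chil3 measured 1.32, 6.87 and 1.18 in LepK, from 40, 205 and 32 counts, against 0.264, 0.80 and 0.173 in IgGK. Its log2 difference was 2.90 ± 0.817 (edgeR adjusted p = 0.0254), a value given as a description because the same LepK counts admitted the gene to the test. Without LepK replicate 2 the value was 1.58 and did not pass (adjusted p = 0.202), without IgGK replicate 1 it was 2.69 (0.0786), and without IgGK replicate 3 it was 2.54 (0.0885). DESeq2 did not call it either (adjusted p = 0.053), although the 2 remaining LepK libraries stayed above all IgGK libraries.

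LepK replicate 2 was also the library with the most hepatocyte RNA. The summed normalised CPM of 7 hepatocyte genes was 964 in it, 89.9 and 118 in the other LepK libraries, 65.5 to 154 in IgGK and 55.3 to 62.3 in WTK. Cps1, the first enzyme of the urea cycle in which Arg1 acts in liver, measured 31.5 in that library and at most 5.40 in the other 8. In IgGK replicates 1, 2 and 3 the hepatocyte sum was 65.5, 154 and 104. Beside it, Arg1 measured 1.32, 3.94 and 2.66 and Chil3 0.264, 0.80 and 0.173. Of the 7 hepatocyte genes, 3 were higher in LepK against IgGK at an unadjusted p under 0.05 and 0 were called by edgeR. Of all 19593 genes, 6441 passed the unadjusted p in either direction and 4.38% were called higher. The part of hepatocyte RNA in the values of Arg1 and Chil3 was not tested.

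**Figure D2:**
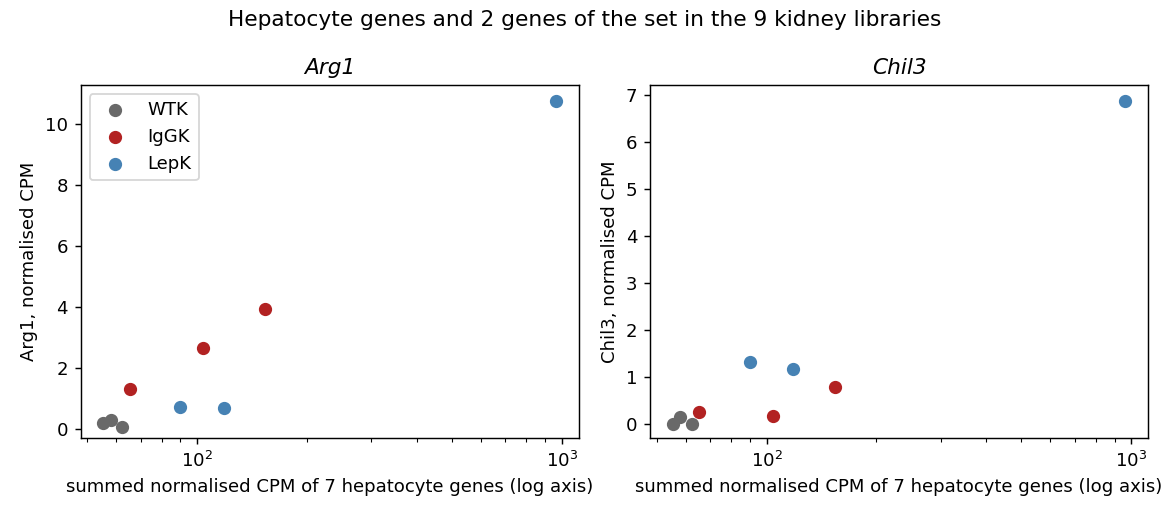
Normalised CPM of Arg1 (left) and Chil3 (right) in the 9 kidney libraries against the summed normalised CPM of 7 hepatocyte genes on a log axis, with 1 point per library. LepK replicate 2, at a hepatocyte sum of 964, holds the highest value of both genes, 10.7 for Arg1 and 6.87 for Chil3. Serpina1a alone gives 40.1 to 85.5 of the sum in each library.

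Against vehicle kidney, most of the set remained high with LepAb. In LepK against WTK, 7 of the 10 genes were called higher, where 15.2% of all genes tested rose, and the median log2 fold change of the 10 was 1.97, beside 0.03 over all genes. The 7 were Arg1, Retnla, Mrc1, Mgl2, Clec10a and Ear2, which are 6 of the 9 genes other than Chil3, and Chil3 itself, which its LepK counts had admitted to the test. Arg1 and Ear2 had also been admitted through the injured groups, so their calls here are descriptions too. Among them were Ear2 at 3.47 ± 0.309 (edgeR adjusted p = 7.76e-06), Mgl2 at 2.06 ± 0.183 (7.84e-06) and Mrc1 at 1.97 ± 0.214 (2.93e-05). None of the 10 fell by edgeR, by DESeq2 or at an unadjusted p under 0.05, where 7.30% of all genes tested fell by edgeR. DESeq2 called 1536 of the 19593 genes lower, and 9170 passed the unadjusted p in either direction. Il4ra was above WTK in every library, but at 0.46 ± 0.0945 on the log2 scale (edgeR adjusted p = 0.00217) it stayed under the fold threshold, passing it only without LepK replicate 1 (0.51) among the libraries left out. Cd163 at -0.88 ± 0.434 (edgeR adjusted p = 0.13) and F13a1 at -0.49 ± 0.355 (0.307) did not pass, although Cd163 was called lower without WTK replicate 2 (-1.20, adjusted p = 0.0432). This comparison shares its LepK and WTK libraries with the previous ones.

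In injured lung, LepAb was accompanied by lower Arg1, F13a1, Cd163, Il4ra and Mrc1. These 5 of the 10 genes fell in LepL against IgGL and none rose (edgeR), where 2.36% of the 19617 genes tested in lung fell and 1.78% rose. At an unadjusted p under 0.05, 7 were lower and 0 higher, where 5357 of all 19617 genes passed in either direction. DESeq2 called 0 of the 10 higher, beside 1242 of all genes. The median log2 fold change of the 10 was -1.05, beside 0.00 over all genes. In 6 of the 10 every LepL library lay below every IgGL library, as in 17.3% of all genes, and none lay wholly above, as 16.0% did.

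Arg1 changed most, from 35.2, 178 and 633 normalised CPM in IgGL to 12.8, 17.2 and 7.31 in LepL. The groups did not overlap, and the log2 fold change was -4.51 ± 0.903 (edgeR adjusted p = 0.0386), but the IgGL libraries themselves ranged widely, and without IgGL replicate 3 the value was -3.11 (adjusted p = 0.0548). F13a1 went from 53.0, 142 and 171 to 28.4, 32.6 and 27.9 (log2 -2.04 ± 0.357, edgeR adjusted p = 0.0327). Cd163 went from 18.2, 58.8 and 45.6 to 11.1, 17.0 and 11.4 (log2 -1.63 ± 0.376, edgeR adjusted p = 0.0479). In all 3 genes IgGL replicate 1 was the lowest of its group and the nearest to the LepL libraries.

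Il4ra measured 335, 454 and 582 normalised CPM in IgGL and 248, 208 and 174 in LepL (log2 -1.12 ± 0.209, edgeR adjusted p = 0.035). Mrc1 measured 176, 321 and 264 in IgGL and 135, 130 and 99.9 in LepL (log2 -1.06 ± 0.213, edgeR adjusted p = 0.0388). Neither overlapped between the groups.

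The secreted proteins and the galactose-type lectins did not pass the test in lung. Retnla measured 1024, 923 and 1397 normalised CPM in IgGL and 1333, 872 and 869 in LepL, with a log2 difference of -0.12 (95% interval -0.61 to 0.37, edgeR adjusted p = 0.756). Chil3 measured 391.8, 745 and 999 in IgGL and 342, 396 and 301 in LepL, overlapping through IgGL replicate 1 and LepL replicate 2 (log2 -1.04 ± 0.291, edgeR adjusted p = 0.0696). Clec10a measured 15.2, 14.2 and 16.5 in IgGL and 11.6, 8.12 and 7.38 in LepL, with no overlap (log2 -0.76 ± 0.198, edgeR adjusted p = 0.0604). DESeq2 called Chil3 and Clec10a lower, at adjusted p = 0.00281 and 0.00661. Mgl2 measured 38.2, 19.8 and 8.68 in IgGL and 39.6, 36.0 and 30.4 in LepL (log2 0.66 ± 0.416, edgeR adjusted p = 0.338). Ear2 measured 80.6, 57.8 and 44.5 in IgGL and 81.8, 88.0 and 53.8 in LepL (log2 0.29 ± 0.236, edgeR adjusted p = 0.467). Both were thus highest in IgGL replicate 1 within their group, opposite to Arg1, F13a1 and Chil3.

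The lung calls were not stable to the loss of a library. Without any 1 of LepL replicates 1, 2 and 3 or IgGL replicates 2 and 3, 0 of Arg1, F13a1, Cd163, Il4ra and Mrc1 passed, while their directions stayed negative, with adjusted p from 0.0548 to 0.214. Over all genes those fits called at most 18 genes higher and 4 lower. Without LepL replicate 2, LepL replicate 3 or IgGL replicate 2 they called 0, so the lung calls given below for other genes were lost there too. Without IgGL replicate 1, 7 genes fell, Chil3 (log2 -1.33, adjusted p = 0.00157) and Clec10a (-0.76, 0.0381) being added, and Mgl2 rose (1.30, 0.016). That fit also called 1937 genes higher and 1602 lower of 20435 tested, in place of 349 and 463 of 19617.

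**Figure D3:**
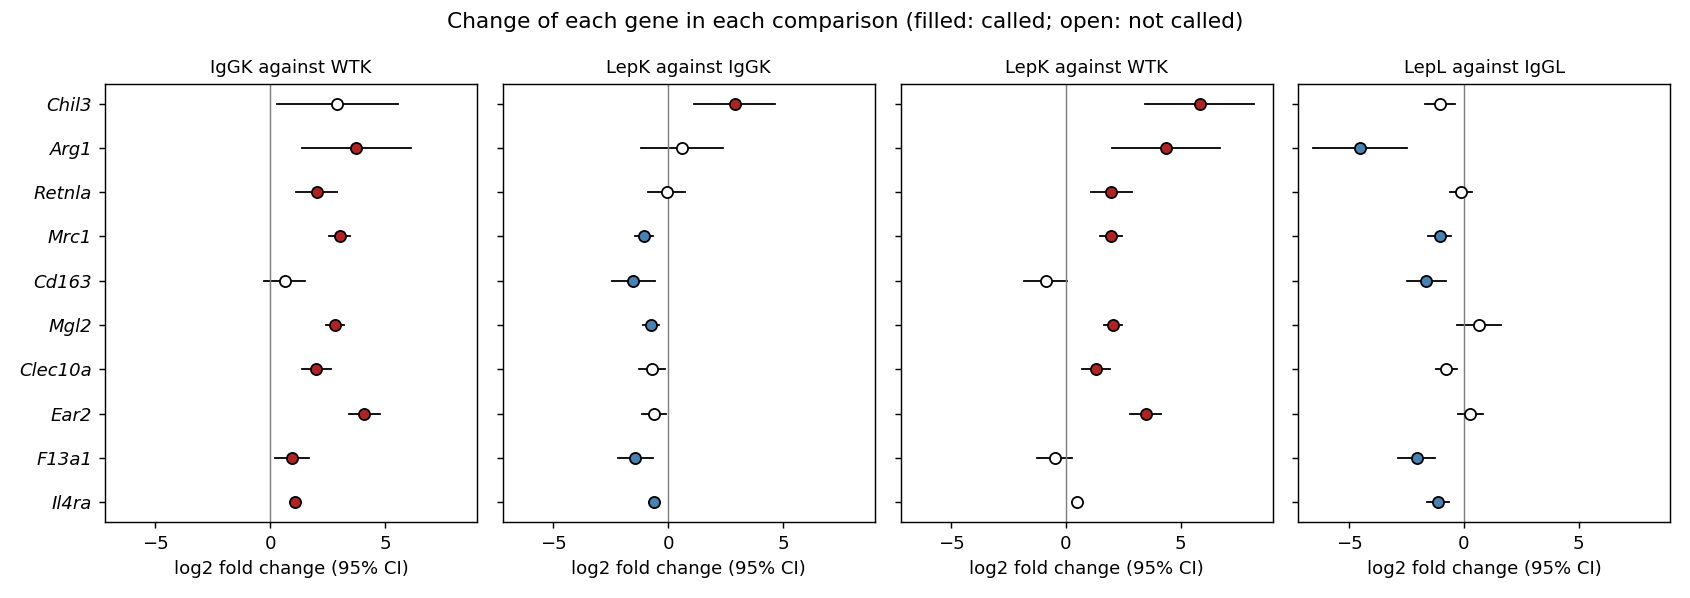
Log2 fold change of each of the 10 genes (points) with its 95% confidence interval (lines) in 4 comparisons, from the edgeR fits of the 9 kidney and the 6 lung libraries. Filled points passed the test, red for higher and blue for lower, and open points did not. Mrc1, Cd163, F13a1 and Il4ra are blue in both LepAb comparisons, and Retnla lies near 0 in both. Chil3 is red with LepAb in kidney, where its LepK counts admitted it to the test.

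Whether the LepAb effect differed between the organs was tested directly, as the log2 effect in kidney minus that in lung, in 1 edgeR fit of the 12 injured libraries. This difference passed an adjusted p of 0.05 for 2 of the 10 genes, both higher in kidney, where 3.51% of 21488 genes were higher and 3.62% lower. Chil3 differed by 3.96 ± 0.889 (edgeR adjusted p = 0.0238) and Arg1 by 5.15 ± 1.42 (edgeR adjusted p = 0.046). Both include LepK replicate 2: without it the difference was 2.65 for Arg1 and did not pass (adjusted p = 0.371), while Chil3 still passed. The Arg1 difference was also lost on leaving out any other library except IgGL replicate 1 or LepK replicate 3 (log2 3.72 to 5.61, adjusted p 0.0602 to 0.106), and that of Chil3 without IgGK replicate 1, IgGK replicate 3, IgGL replicate 2 or LepL replicate 3 (3.58 to 3.93, 0.0538 to 0.0619). For Mrc1, Cd163, Clec10a and Retnla the differences were 0.03, 0.16, 0.09 and 0.08, with 95% intervals of -0.61 to 0.68, -1.12 to 1.43, -0.56 to 0.74 and -0.66 to 0.83. Mgl2 at -1.38 ± 0.513 (edgeR adjusted p = 0.113) and Ear2 at -0.89 ± 0.297 (0.0853) did not pass, and both passed without IgGL replicate 1 (-2.02, 0.00434 and -1.14, 0.0104), as did F13a1 (1.01, 0.0317) and Il4ra (0.70, 0.0303), giving 6 of 10, in a fit that called 1853 genes higher and 1910 lower, in place of 754 and 777.

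General macrophage genes moved with the set. The summed normalised CPM of 12 macrophage core genes (such as Adgre1, Cd68, Csf1r and the C1q genes) was 270 to 308 in WTK, 1890 to 2399 in IgGK and 711 to 1037 in LepK. In lung it was 3943 to 6891 with IgG and 8174 to 8438 with LepAb. Of the 12, 11 rose in IgGK against WTK, 9 fell in LepK against IgGK and 3, Itgam, Fcgr1 and C1qc, fell in LepL against IgGL. Of all genes tested, 21.7%, 5.99% and 2.36% did so, in the same order. The higher sum in LepL came from Lyz2, the lysozyme gene of macrophages and alveolar epithelium, at 5325, 3404 and 2203 in IgGL and 7153, 6978 and 7375 in LepL. Without Lyz2 the sum was 1566 to 1950 in IgGL and 889 to 1285 in LepL. Lung epithelial genes moved the same way as Lyz2, their sum being 16370 to 22140 in IgGL and 30130 to 47250 in LepL. The 8 alveolar macrophage genes summed to 145.9 to 197.5 and 272.6 to 276.5. Most of that was Fabp4 (means 54.6 and 101) and Car4 (63.4 and 95.5), which also measured 64.8 to 345 and 55.4 to 220 in kidney libraries. The log2 difference was negative for 2 of the 8, among them Marco (means 24.9 and 14.6). Of those 8, only Cidec, a lipid droplet gene, was called higher (log2 1.29 ± 0.179, edgeR adjusted p = 0.0327), and 6 were higher at an unadjusted p under 0.05. Of all 19617 genes, 1.78% were called higher and 5357 passed the unadjusted p in either direction. The part of either list in the lung values was not tested.

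Set against the macrophage core of the same library, 5 of the 10 genes were higher with LepAb in kidney, a smaller share than the 80.0% of all genes tested in kidney, as the core sum itself was lower in LepK than in IgGK. Expressed per 100 CPM of the core genes, Chil3, Retnla, Clec10a, Ear2 and Il4ra were higher in every LepK library than in every IgGK library, and none of the 10 was lower in every one, as 0.597% of all genes were. Retnla was 0.714, 0.720 and 1.05 in IgGK and 1.89, 2.22 and 1.22 in LepK, Ear2 was 0.450, 0.398 and 0.463 against 0.759, 0.553 and 0.625, and Il4ra was 2.35, 2.21 and 2.17 against 3.96, 3.10 and 2.90. Mrc1, by contrast, held 1.96, 1.89 and 2.05 in IgGK and 2.01, 2.32 and 2.02 in LepK, which overlapped. With 3 against 3 libraries the exact two-sided permutation test cannot go below p = 0.1, the value of each of the 5 separated genes. Without Lyz2 in the core, Retnla overlapped and 4 genes remained separated. The share of all genes separated by that core was not computed.

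In kidney injury itself, Cd163, F13a1 and Il4ra were lower per macrophage core in IgGK than in WTK, as were 89.4% of all genes tested, and Ear2 was higher, as were 1.41%, without overlap. Il4ra was 8.14, 7.66 and 7.38 in WTK, so that its rise was smaller than that of the core sum, and Ear2 was 0.339, 0.116 and 0.117. Without Lyz2, which held 12.4% to 15.1% of the core sum in WTK and 53.1% to 53.7% in IgGK, Il4ra alone was lower and Arg1, Mrc1, Mgl2 and Ear2 were higher. In lung, 8 of the 10 were lower per macrophage core in LepL than in IgGL, as were 54.8% of all genes tested in lung, and none was higher, as 2.44% were. That count rests on Lyz2: without it Arg1, F13a1 and Il4ra were lower and Mgl2 and Ear2 higher. With the geometric mean of the core genes Mrc1 was lower as well. Shares over all genes were not computed without Lyz2 or with the geometric mean, in kidney or lung, so those counts are descriptions.

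**Figure D4:**
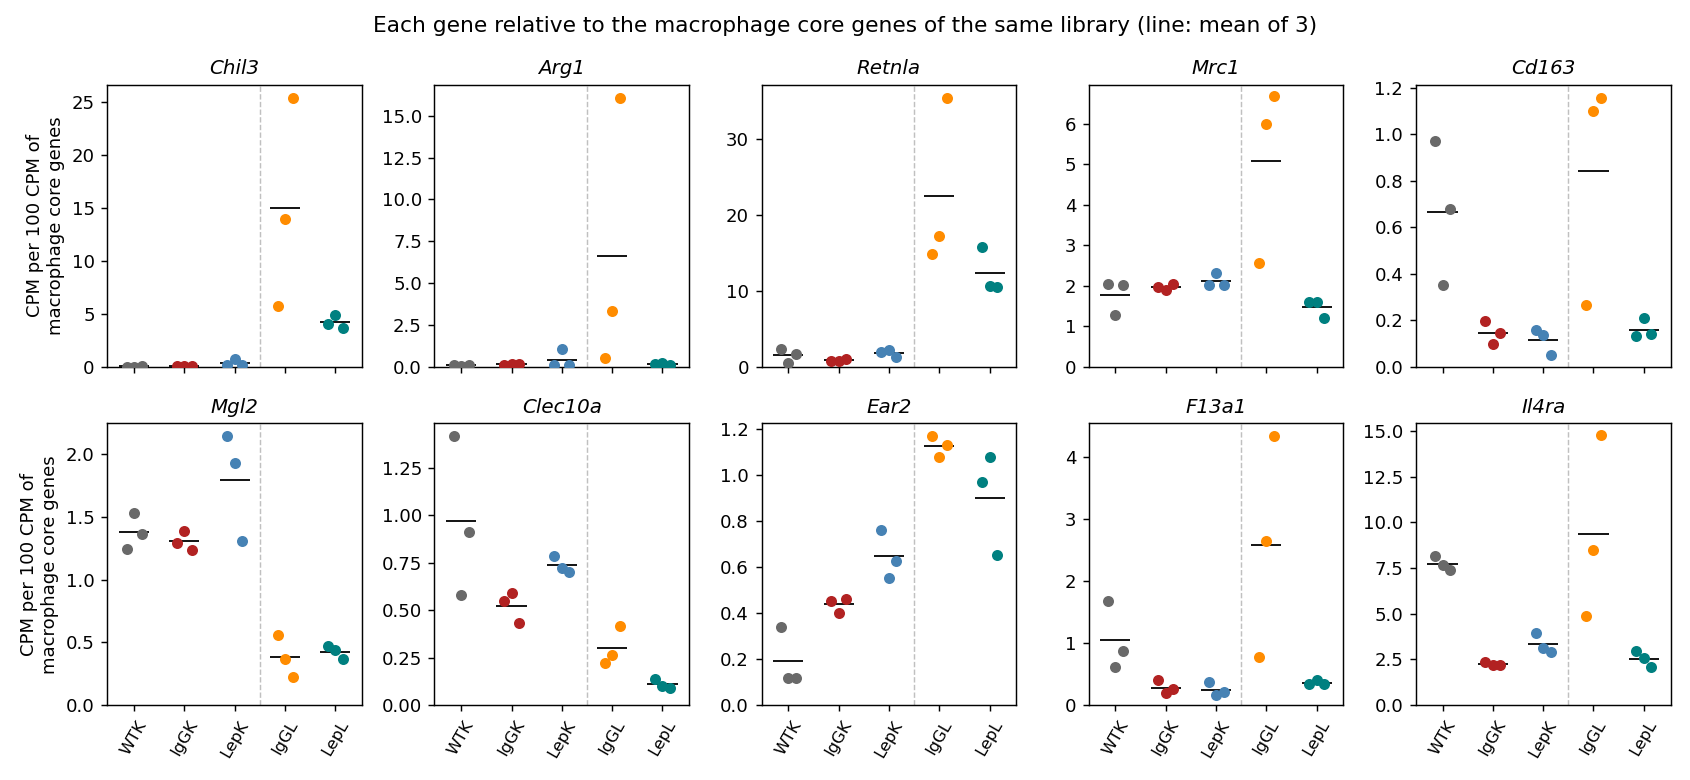
Each of the 10 genes as CPM per 100 CPM of 12 macrophage core genes in the same library (linear axes from 0), with 1 point per library and a line at the mean of 3. Clec10a, Ear2, Retnla and Il4ra lie higher in LepK than in IgGK without overlap, while Mrc1 stays near 2 in IgGK and LepK.

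The wider interleukin 4 and 13 pathway was measured with 25 genes for ligands, receptors, signalling and upstream alarmins, 20 of them tested in kidney and 21 in lung. In IgGK against WTK 13 of the 20 rose, where 21.7% of all genes tested did, and the median log2 value of the 20 was 1.30. Il1rl1, with 5, 16 and 33 counts in WTK, was admitted to the test through the injured groups. With LepAb 4 of the 20 fell against IgGK, Il2rg, Il33, Il10ra and Csf1, where 5.99% of all genes tested fell, and the median was -0.41. Il4 itself stayed between 0.665 and 1.77 normalised CPM in all 15 libraries and passed no comparison. Il13 had no count in any IgGK or LepK library. Stat6, the transcription factor of the pathway, measured 92.4 to 109.6 in kidney and 118 to 138 in lung and passed no comparison, nor did Il13ra1, the second chain of the receptor with Il4ra, at 49.8 to 62.4 in kidney and 74.0 to 140.1 in lung.

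Il33, an alarmin released by damaged stroma and epithelium that drives type 2 responses, went in opposite directions with LepAb in the organs. It measured 6.81, 7.86 and 7.97 normalised CPM in WTK, 21.3, 23.4 and 21.7 in IgGK and 13.3, 12.9 and 12.2 in LepK, and fell in LepK against IgGK (log2 -0.78 ± 0.101, edgeR adjusted p = 0.000428). In lung it measured 93.9, 36.9 and 38.7 in IgGL and 191, 148.2 and 188 in LepL, and rose (log2 1.64 ± 0.332, edgeR adjusted p = 0.0391). The difference between organs passed the test (log2 -2.39 ± 0.389, edgeR adjusted p = 0.00878). Il33 was the 1 gene of the 21 that passed in LepL against IgGL, where 1.78% of all genes tested rose and 2.36% fell. Its lung call was lost without LepL replicate 2, LepL replicate 3 or IgGL replicate 2, fits in which 0 of all genes passed.

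Of 23 further genes tied to alternative activation, 13 of 22 tested rose and 1 fell in IgGK against WTK, and 10 of 22 fell in LepK against IgGK. Of all genes tested, 21.7% rose and 15.6% fell in the first comparison, and 5.99% fell in the second. Among the 13, Msr1, Ccl17, Alox15, Cd200r1 and Gpnmb had under 10 counts in some WTK library and passed the filter through the injured groups. Their calls against WTK are therefore descriptions. Gpnmb, a lysosome-linked glycoprotein, measured 68.1, 101 and 75.2 normalised CPM in IgGK and 6.75, 14.4 and 13.96 in LepK (log2 -2.81 ± 0.314, edgeR adjusted p = 0.000196). Trem2, a lipid-sensing receptor, and Fcrls also fell (log2 -1.39 ± 0.221 and -1.27 ± 0.179, edgeR adjusted p = 0.00124 and 0.000685). In lung Stab1, a scavenger receptor, fell (log2 -0.91 ± 0.124, edgeR adjusted p = 0.0327), and Cbr2, a carbonyl reductase abundant in airway epithelium, rose from 929, 522 and 357 to 1399, 2784 and 3327 (log2 2.06 ± 0.398, edgeR adjusted p = 0.0365), and 21 of the 23 did not pass. Classical activation genes followed the same course in kidney, 10 of 13 rising in IgGK against WTK. Of these 10, Tnf, Il12b, Cd80 and Ccr7 also had under 10 counts in some WTK library, so their rises are descriptions. In LepK against IgGK 5 of 13 fell, among them Il1b (log2 -1.46 ± 0.322, edgeR adjusted p = 0.00744). In lung 0 of 14 were called by edgeR, with 4 lower and 0 higher at an unadjusted p under 0.05. There, 5357 of all 19617 genes passed the unadjusted p in either direction.

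Markers of other cells that can carry these genes were measured beside them. Neutrophil genes were lower with LepAb in both organs. In kidney 4 of the 8 listed genes were tested and these 4 fell (sums of 16.9 to 25.6 in IgGK and 6.91 to 9.67 in LepK). Cxcr2 and S100a8 were admitted there through IgGK alone, where they were high, so their falls are descriptions. In lung 4 of 7 tested fell (152 to 378 and 58.7 to 89.7). Of all genes tested, 5.99% fell in kidney and 2.36% in lung. The 8 monocyte genes summed to 546 to 562 in IgGK and 372 to 391 in LepK. In lung their sum was 5197 to 6863 with IgG and 2207 to 3263 with LepAb. Eosinophil genes, which bear on Ear2, summed to 8.84 to 11.3 in IgGK and 6.58 to 8.79 in LepK, and the granule gene Epx was at most 0.134 in any library. The 8 dendritic cell genes, which bear on Mgl2 and Clec10a, summed to 148.1 to 207 in IgGK and 89.2 to 117 in LepK, and to 167 to 359 and 290.4 to 379 in the lung groups IgGL and LepL. The platelet genes, which bear on F13a1, summed to 16.9 to 19.7 in IgGK and 21.5 to 21.8 in LepK, a difference carried by the integrin gene Itga2b (log2 0.60, edgeR adjusted p = 0.000914), while Pf4, platelet factor 4, measured 5.11, 6.40 and 5.09 in IgGK and 2.34, 2.92 and 3.40 in LepK (log2 -0.94, 0.0879). In lung they summed to 42.0 to 94.98 with IgG and 68.6 to 84.7 with LepAb, and Ppbp and Gp9 rose (log2 1.52 and 1.13, edgeR adjusted p = 0.0327 and 0.042). Their part in the values of the 10 genes was not tested.

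The gene whose profile lay nearest to each of the 10 was found among 15516 genes, as the smallest root mean square difference of log2 CPM over the 15 libraries after centring within each organ. These distances describe profiles that share libraries and carry no test. Il4ra lay nearest to Lgals1 (0.116), Mgl2 to H2-Aa (0.185), followed by H2-Eb1 and Cd74, which are antigen presentation genes, and Mrc1 to the complement gene C1qc (0.186). Clec10a lay nearest to Tmem45a (0.206), Retnla to Pcnx2 (0.362), F13a1 to the matrix gene Fbln2 (0.368), Ear2 to Cd276 (0.368) and Cd163 to Olfr56 (0.382). The nearest profiles of Chil3 and Arg1 were farther off, Tdo2 (0.878), a liver enzyme, and Saa3 (1.0), an acute-phase gene. Within the set the closest pair was Cd163 and F13a1 (0.403), followed by Mrc1 and Clec10a (0.423).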

How the data were processed

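RNA-seq counts of 15 mouse libraries were analysed, 3 in each of WTK, IgGK, LepK, IgGL and LepL, grouped by their labels, which give poly(A) enrichment and non-directional libraries. The authors deposited whole-number read counts per gene and FPKM values, in which the counts were scaled by gene length and by a library total that is not given. The submitters' processing notes name GRCm39 (mm39), DESeq and DESeq2. The aligner and counting tool are not given in the sources used here. The deposited table also holds the authors' group means, log2 fold changes, p-values and adjusted p-values, which were not used. Doses, ages and days are from the study's methods.

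Tests were run in edgeR 4.0.16 with limma 3.58.1, under R 4.3.3, and DESeq2 1.42.0 served as an alternative. Counts were filtered with filterByExpr (minimum count 10, minimum total 15), scaled by TMM factors and fitted with glmQLFit and glmQLFTest, the 9 kidney and 6 lung libraries apart. A call required an adjusted p (Benjamini-Hochberg, all genes tested) under 0.05 and a log2 change over 0.5 in size, the second rule not being applied to kidney minus lung. Total counts of 25913969 to 38924788 limit genes of a few counts, such as Chil3 in kidney. Libraries were taken as separate mice, which the labels do not state, so p-values measure the spread between libraries. The 10 genes and the gene lists were chosen with earlier results of these data known. All 10 genes are named, with up to 3 called genes of lowest adjusted p from each list and comparison, and others were chosen after their values were seen. Deviations of libraries of shared replicate number correlated weakly (-0.0771 to 0.141). The highest values were between IgGK and LepK, where 4 of 6 libraries correlated best with their own number. Alternatives were other scalings, DESeq2, no filter, a replicate block, 1 fit of all libraries, no fold threshold and leaving out each library. Scripts were tested on simulated data.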

Additional observations from a re-analysis of the deposited data

Results flagged for a closer look

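The LepAb effect differed between kidney and lung, by the test of the difference in edgeR, for 2 of the 10 alternatively activated macrophage genes. Both were higher in kidney, where 3.51% of 21488 genes were higher and 3.62% lower. Kidney minus lung, the log2 effect was 3.96 for Chil3 (adjusted p = 0.0238) and 5.15 for Arg1 (adjusted p = 0.046). Of 12 fits that each left out 1 library, 8 kept the Chil3 call and 2 the Arg1 call. Without LepK replicate 2 the Arg1 value was 2.65 (edgeR adjusted p = 0.371). Of the pathway genes that could be named by the stated rule, Il33 differed by -2.39 (adjusted p = 0.00878), Il17rb, a receptor chain for the alarmin interleukin 25, by -1.13 (adjusted p = 0.0326) and Il10ra by -0.93 (adjusted p = 0.0332). Il17rb measured 20.7 to 25.7 normalised CPM in IgGK and 17.1 to 22.7 in LepK, against 0.805 to 1.25 in IgGL and 1.44 to 1.93 in LepL. Il10ra, a chain of the interleukin 10 receptor, measured 29.0 to 37.4 in IgGK and 14.1 to 19.6 in LepK, and 39.1 to 52.9 in IgGL and 37.0 to 53.9 in LepL.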

How the results depend on the processing

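Of the values of single genes under the alternatives, 627 kept their direction and their side of the thresholds, 63 fell short of a threshold they had passed, 32 newly passed one and 28 changed sign. In LepK against IgGK, DESeq2 called 0 of the 10 genes higher in place of 1, beside 949 of all 19593 genes. In LepL against IgGL, 1 gene, Mgl2, was called higher without the filter on low counts. That fit called 1515 genes higher and 1173 lower of 35071, in place of 349 and 463 of 19617. With the replicate block 0 of the 10 were called lower in place of 5, in a fit that left 1 gene higher and 3 lower of 19617. The difference between organs passed for 4 genes without the filter, in a fit that called 1096 genes higher and 1563 lower of 37345. It passed for 1 gene with the replicate block, which called 468 genes higher and 538 lower in place of 754 and 777. Relative to the macrophage core without Lyz2, 5 genes stood apart in lung in place of 8, a count without its share over all genes. The numbers of the replicates were not shown to pair the libraries, since 2 to 4 of 6 libraries correlated best with their own number, and the block moved no other count of the 10 genes by over 1.5 times. Leaving out 1 library gave 0 to 1 genes higher and 3 to 6 lower in LepK against IgGK, and 0 to 1 lower in LepK against WTK. It gave 0 to 1 higher and 0 to 7 lower in LepL against IgGL, and 0 to 6 genes for the difference between organs. Over all genes these fits called 594 to 992 higher and 695 to 1271 lower in LepK against IgGK. They called 1135 to 1766 lower in LepK against WTK, and 0 to 1937 higher and 0 to 1602 lower in LepL against IgGL. For the difference between organs they called 141 to 1853 higher and 195 to 1910 lower. The Arg1 log2 fold change in LepK against IgGK was -0.085 with the replicate block and -1.88 to 1.12 on leaving out a library. That of Retnla on leaving out a library was -0.39 to 0.094 in LepK against IgGK and -0.36 to 0.072 in LepL against IgGL. The kidney minus lung differences scaled by library size alone were -0.16 for Retnla, -0.21 for Mrc1, -0.10 for Cd163 and -0.16 for Clec10a, and for Mrc1 -0.029 with upper-quartile scaling, -0.025 with the replicate block and -0.001 with all libraries in 1 fit. On leaving out a library they were -0.24 to 0.32 for Retnla, -0.17 to 0.24 for Mrc1, -0.21 to 0.51 for Cd163 and -0.070 to 0.31 for Clec10a. With library size as the sole scaling the all-gene median of the log2 fold changes was 0.48 in IgGK against WTK, 0.29 in LepK against WTK, -0.19 in LepK against IgGK and -0.25 for kidney minus lung, and it called 7803 genes higher and 1178 lower (in place of 4253 and 3057), 4782 and 512 (2984 and 1431), 408 and 2185 (858 and 1174) and 249 and 1968 (754 and 777) in that order. The causes were not tested.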
